A study of Homo sapiens with 12 samples.

Results

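Proprotein convertases are proteases of the secretory pathway that cut inactive precursors into working hormones, growth factors, receptors and enzymes. The 6 genes described here are FURIN, PCSK1, PCSK5, PCSK6, PCSK7 and MBTPS1, taken by symbol from the 70116 gene identifiers of the count table. They were selected on a measured value in part, since FURIN was picked for its large fall after knockdown of ACLY, and the others were added as relatives. The fall of FURIN in siACLY is therefore given as a description, and no test of any member in siACLY against siControl is reported. Of the 6 members, 4 had counts, and the same 4 passed the filter on low counts that left 16197 genes for testing.

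All libraries came from MiaPaCa-2 cells, a long-used line grown from a human pancreatic carcinoma, transfected with small interfering RNAs (siRNAs). The groups were siControl (control siRNA), siSLC25A1 (knockdown of the mitochondrial citrate carrier), siACLY (knockdown of ATP citrate lyase, which makes cytosolic acetyl-CoA from citrate) and siACO1 (knockdown of cytosolic aconitase). Each group had 3 libraries of poly(A) RNA, 12 in all. The number and sequences of the siRNAs, the time after transfection and whether replicates were separate cultures are not given in the sources used here, so p-values measure the spread between these libraries, which may be technical. The study's title places the work in ferroptosis, an iron-dependent form of cell death, under nutrient stress.

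Most convertases cut after paired basic residues. FURIN cycles between the trans-Golgi network, the cell surface and endosomes, PCSK7 follows a related route as a membrane protein, and PCSK6 (PACE4) is secreted and binds the extracellular matrix. PCSK5 acts at the cell surface, and PCSK1 works in the granules of endocrine cells, where it processes prohormones such as proinsulin. MBTPS1, the site-1 protease, has another specificity and cuts membrane-bound transcription factors in the Golgi, among them the sterol regulators SREBF1 and SREBF2 and the stress sensor ATF6.

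FURIN lies on chromosome 15 (90868592 to 90883458, plus strand) and PCSK6 on the same chromosome (101297142 to 101525202, minus strand). PCSK7 is on chromosome 11 (117204337 to 117232525, minus strand) and MBTPS1 on chromosome 16 (84053761 to 84116906, minus strand). All are protein-coding genes placed by GENCODE release 29 on GRCh38. No exon base of FURIN or MBTPS1 overlapped another gene. In PCSK6 20% of exon bases and in PCSK7 19.7% overlapped other genes, which makes the counts of these 2 members uncertain, because the strand setting of the counting is not known. The genes overlapping PCSK6 reached at most 32 counts in a library. TAGLN, on the strand opposite PCSK7, had 173 to 620 counts in a library.

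The DNA before the start sites of FURIN and PCSK6 is shown because these 2 members had the largest log2 fold changes against siControl and did not share a pattern across the knockdowns. RefSeq (GRCh38.p14) gives 4 start sites for FURIN, of which the 2 most upstream are printed, and 1 for PCSK6, and counts per gene do not tell which start was used. The RefSeq start of PCSK6 lies inside the longer GENCODE gene. Each stretch holds the 250 bases before a start, on the strand of the gene, with matches to the Sp1 GC box GGGCGG (either strand) in capitals.

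FURIN, most upstream start, chr15:90868338-90868587, plus strand: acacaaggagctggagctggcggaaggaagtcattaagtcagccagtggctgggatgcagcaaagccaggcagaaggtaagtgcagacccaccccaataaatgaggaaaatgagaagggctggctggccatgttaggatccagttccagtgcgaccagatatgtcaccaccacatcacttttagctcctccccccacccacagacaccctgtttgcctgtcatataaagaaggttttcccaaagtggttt

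FURIN, next start, chr15:90871290-90871539, plus strand: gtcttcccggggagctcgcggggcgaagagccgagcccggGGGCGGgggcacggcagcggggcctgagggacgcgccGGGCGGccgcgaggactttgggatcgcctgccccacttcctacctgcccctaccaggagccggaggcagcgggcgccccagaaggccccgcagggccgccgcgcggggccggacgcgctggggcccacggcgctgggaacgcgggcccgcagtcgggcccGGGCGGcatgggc

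PCSK6, chr15:101489708-101489957, minus strand: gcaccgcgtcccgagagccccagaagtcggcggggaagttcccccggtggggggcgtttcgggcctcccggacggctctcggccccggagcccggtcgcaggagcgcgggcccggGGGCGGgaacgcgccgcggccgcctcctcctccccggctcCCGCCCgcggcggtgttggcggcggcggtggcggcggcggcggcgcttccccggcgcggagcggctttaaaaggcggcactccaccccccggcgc

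The first FURIN stretch is 51.6% G and C with 2 CpG dinucleotides and holds no GC box. The second is 80.8% G and C with 35 CpG and 3 GC boxes, and the PCSK6 stretch is 81.2% G and C with 43 CpG and 2 GC boxes. Of the FURIN windows not printed, the third is 78.0% G and C with 28 CpG and 3 GC boxes, and the last is 55.2% G and C with 7 CpG and no GC box. Across the 35116 windows of the same length in the table, the median was 58% G and C, and 42.6% held a GC box. None of the 4 FURIN windows nor the PCSK6 window held the AP-1 letters TGANTCA (6.57% of all windows), the cAMP response element TGACGTCA (1.65%), the E-box CACGTG (6.34%), the hypoxia core ACGTG (18.5%), the C/EBP letters TTGCNNAA (9.05%) or the SMAD palindrome GTCTAGAC (0.182%), on either strand. A match is a description of letters and not a measured site.

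Library totals ran from 24159424 to 43792811 counts. Levels are given in CPM, the count scaled to a fixed library size after adjustment by trimmed mean of M values (TMM). A gene is said to be called where its adjusted p in edgeR's quasi-likelihood test was under 0.05. The targets were at 8.78% (SLC25A1), 7.25% (ACLY) and 3.75% (ACO1) of siControl in the libraries labelled for them. KRT8, KRT18 and VIM were found in every library (KRT18, the lowest, at 750 CPM or more), EPCAM had at most 2 counts, and INS, CHGA, PRSS1 and PTPRC, which mark endocrine, acinar and blood cells, were listed at 0. PECAM1, of endothelium, had at most 7 counts in a library, and COL1A1, of fibroblasts, at most 9. The library siACO1 replicate 3 stood apart from its replicates, with a chi-square per degree of freedom of 10.7 and 11.3 against them, while the other pairs of replicates ran from 2.24 to 5.37. Across 15384 genes its deviation fell with exon length (Spearman's rho -0.244, a description across genes of 1 library). On the log2 scale that library deviated from replicates 1 and 2 by 0.08 for FURIN, -0.24 for PCSK6, -0.35 for PCSK7 and -0.11 for MBTPS1. Results of the members in siACO1 are therefore given with and without it, and those of other named genes where leaving it out ended a call.

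Levels of different genes were compared per kilobase, either of exon or of the longest coding transcript. In siControl, MBTPS1 was the most abundant member at 23.3 ± 0.424 CPM per kilobase (SD, n = 3), followed by FURIN at 15.6 ± 1.00. PCSK7 was at 2.7 ± 0.103 and PCSK6 at 1.85 ± 0.0826 CPM per kilobase. The order was the same when the longest coding transcript was used as the length (54.9, 17.0, 12.9 and 5.55 CPM per kilobase), although PCSK7 then lay close to FURIN. In siACLY the 2 lengths gave different orders, with FURIN above PCSK7 per kilobase of exon (6.17 and 2.81) and below it per kilobase of the longest transcript (6.72 and 13.5). The place of FURIN relative to PCSK7 in siACLY therefore depended on the length used.

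PCSK1 and PCSK5 were listed at 0 in all 12 libraries. At 3 counts, a count of 0 allows up to 0.0685 to 0.124 CPM per library, for counting error only, here scaled by library totals without TMM. CSNK2B and ATF6B, which most cells express, were also listed at 0 in every library, so a 0 in this table need not mean that a transcript was missing.

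FURIN had 76.9, 68.3 and 76.0 CPM in siControl and 72.0, 67.9 and 72.3 CPM in siSLC25A1. In siACLY it had 30, 27.6 and 30 CPM, and in siACO1 96.2, 90.5 and 98.6 CPM. The siACLY libraries lay below and the siACO1 libraries above all others, while siControl and siSLC25A1 overlapped. These levels rest on 711 to 3070 counts per library.

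**Figure D1:**
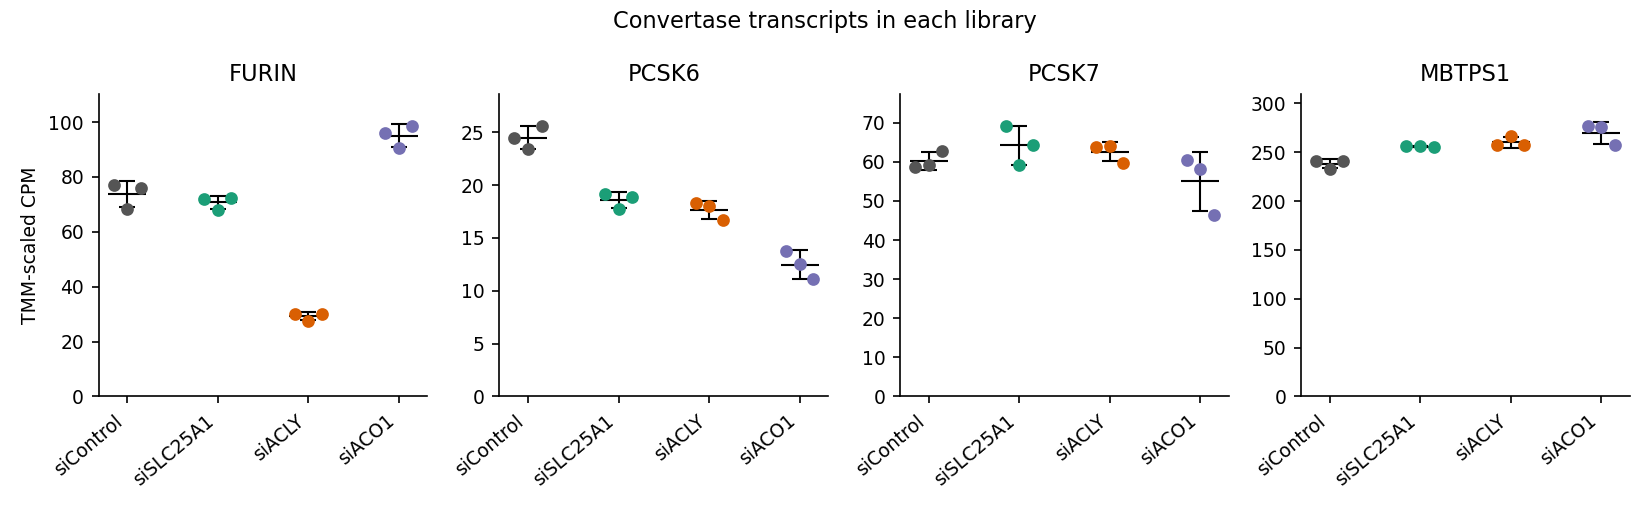
Levels of the 4 measured convertases in TMM-scaled CPM (y axis, from 0, with a scale of its own in each panel) for each library (points) of the 4 groups, with the group mean (long bar) and SD (n = 3). FURIN is lowest in siACLY (27.6 to 30 CPM), and PCSK6 is lowest in siACO1 (11.1 to 13.8 CPM).

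The mean level of FURIN in siACLY was 29.2 ± 1.40 CPM against 73.7 ± 4.73 in siControl, or 39.7% of it (log2 fold change -1.33, SE 0.06), the value for which the gene was picked. It was 58th from the lowest log2 fold change among the tested genes in that comparison. Against the other knockdowns, which do not use the control libraries but do use the same siACLY libraries, FURIN in siACLY was at 41.4% of its level in siSLC25A1 (log2 difference -1.27, SE 0.06) and at 30.8% of that in siACO1 (-1.70, SE 0.06). No test is given for these values.

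After knockdown of ACO1, FURIN rose to 95.1 ± 4.16 CPM, or 129% of siControl (log2 fold change 0.37, SE 0.05, adjusted p 1.51e-06), and all 3 libraries were above the 3 controls. Without siACO1 replicate 3 the log2 fold change was 0.34 (adjusted p 1.13e-06). This comparison shares the siControl libraries with the one that picked the gene. A contrast with no siControl library on either side also had siACO1 as the higher group. It used the same siACO1 libraries, so it is not independent of the comparison above, and its spread was estimated from all 12 libraries. FURIN was lower in siSLC25A1 than in siACO1 by a log2 difference of -0.43 (SE 0.05, adjusted p 1.15e-07; -0.40 without siACO1 replicate 3). With only these 2 groups fitted the difference was also -0.43 (adjusted p 3.66e-06).

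After knockdown of SLC25A1, FURIN was at 96.0% of siControl (log2 fold change -0.06, 95% interval -0.17 to 0.05, adjusted p 0.49). The interval leaves room for a fall of 0.17 on the log2 scale, so a small difference was not detectable with these libraries.

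PCSK6 followed another pattern and was lower than in siControl in all 3 knockdowns. Its levels were 24.5, 23.4 and 25.6 CPM in siControl, 19.2, 17.7 and 18.9 in siSLC25A1, 18.3, 18 and 16.7 in siACLY, and 13.8, 12.5 and 11.1 in siACO1. Each knockdown group lay wholly below siControl, the siACO1 group lay below both other knockdowns, and siSLC25A1 and siACLY overlapped. The 3 comparisons share the same control libraries.

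In siACO1 PCSK6 fell to 50.8% of siControl (log2 fold change -0.98, SE 0.08, adjusted p 5.23e-11). Without siACO1 replicate 3 the log2 fold change was -0.90 (adjusted p 1.45e-11). It fell in siSLC25A1 to 76.1% (-0.39, SE 0.08, adjusted p 0.000312). In siACLY it was at 72.5% of siControl (-0.46, SE 0.08; described without a test).

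The contrasts between knockdowns, which have no control library on either side, separated siACO1 from the others. Their spread was estimated from all 12 libraries, and those with siACO1 used the same siACO1 libraries as the comparison with siControl. PCSK6 was higher in siSLC25A1 than in siACO1 by 0.58 on the log2 scale (SE 0.08, adjusted p 1.11e-06), and higher in siACLY than in siACO1 by 0.51 (SE 0.08, adjusted p 6.27e-06). Without siACO1 replicate 3 these differences were 0.51 and 0.43. Between siACLY and siSLC25A1 the log2 difference was -0.07 (95% interval -0.23 to 0.09, adjusted p 0.537).

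**Figure D2:**
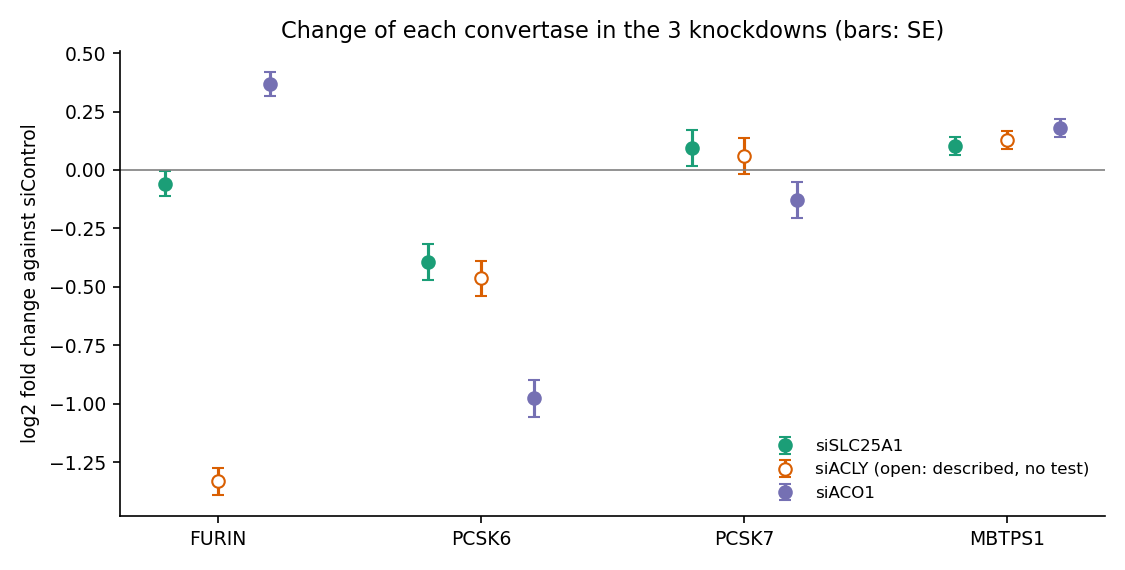
Log2 fold change against siControl (y axis) of the 4 measured convertases (x axis) in siSLC25A1, siACLY and siACO1, with standard errors as bars. Open points are siACLY values, which are described without a test. In siACO1 FURIN is at 0.37 and PCSK6 at -0.98, on opposite sides of 0.

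FURIN and PCSK6 thus differed in opposite directions in siACO1. Their ratio within a library does not depend on how libraries are scaled. It was 3.14, 2.92 and 2.97 FURIN reads per PCSK6 read in siControl and 3.75, 3.84 and 3.81 in siSLC25A1. In siACLY it was 1.64, 1.53 and 1.79, and in siACO1 6.99, 7.21 and 8.90. No group overlapped another, and siACO1 replicate 3 gave the highest value. The siACLY ratio holds the fall for which FURIN was picked, so its distance from siControl is a description and not separate support.

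**Figure D3:**
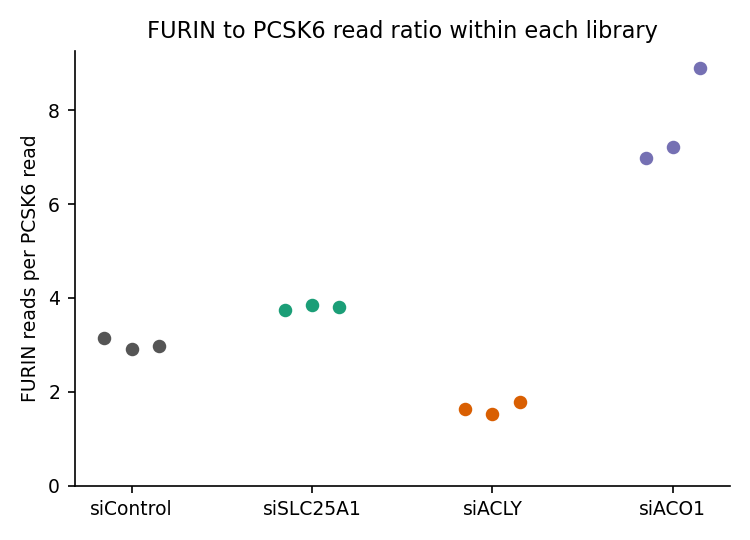
FURIN reads per PCSK6 read (y axis, from 0) in each library (points) of the 4 groups. The ratio runs from 1.53 to 1.79 in siACLY, from 2.92 to 3.14 in siControl and from 6.99 to 8.90 in siACO1. FURIN was picked for its fall in siACLY.

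Among the 3 measured members that cut after basic residues, FURIN made up 76.6% to 78.4% of the summed level per kilobase of exon in siControl. Its share was 58.0% to 61.6% in siACLY and 84.3% to 87.7% in siACO1. With the longest coding transcript as the length the shares were lower (46.6% to 49.3%, 26.2% to 29.3% and 57.5% to 64.5%), in the same order. The summed level of the 3 was 18.9 to 20.8 CPM per kilobase of exon in siControl, 10.1 to 10.6 in siACLY and 22.7 to 24.1 in siACO1. Per kilobase of the longest transcript it was 33.7 to 36.8, 23.6 to 24.8 and 35.2 to 38.3, so that siACO1 then overlapped siControl, while siACLY lay below it with either length. The siACLY shares and sums hold the fall for which FURIN was picked.

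PCSK7 was called in none of the comparisons with siControl that were tested. Its levels were 58.6, 59.1 and 62.8 CPM in siControl, 69.2, 59.2 and 64.2 in siSLC25A1, 63.9, 64.1 and 59.8 in siACLY, and 60.4, 58.3 and 46.4 in siACO1. The groups overlapped, and siACO1 replicate 3 was the lowest library. The log2 fold change was 0.09 in siSLC25A1 (95% interval -0.07 to 0.26, adjusted p 0.445) and -0.13 in siACO1 (-0.29 to 0.03, adjusted p 0.208). The latter was -0.02 without siACO1 replicate 3, and was called without siACO1 replicate 1 (-0.20, adjusted p 0.0437). In siACLY PCSK7 was at 104% of siControl. TAGLN on the opposite strand had 7.85 CPM in siControl, 7.69 in siSLC25A1, 14.6 in siACLY and 10.9 in siACO1, and its part in the count of PCSK7 was not tested.

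PCSK7 was higher in siSLC25A1 than in siACO1 by 0.22 (SE 0.08, adjusted p 0.0271). That call was lost without siACO1 replicate 3 (0.12, adjusted p 0.0899) and without siSLC25A1 replicate 1 (0.17) or 3 (0.23). Between siACLY and siACO1 the log2 difference was 0.19 (95% interval 0.03 to 0.35, adjusted p 0.0596), and 0.08 without siACO1 replicate 3; it was called without siACO1 replicate 1 (0.26) or 2 (0.23).

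MBTPS1 had 241, 233 and 241 CPM in siControl, 256, 256 and 255 in siSLC25A1, 257, 267 and 257 in siACLY, and 277, 276 and 257 in siACO1. Every knockdown library was above the 3 controls. It rose in siACO1 to 113% of siControl (log2 fold change 0.18, SE 0.04, adjusted p 0.000537; 0.21 without siACO1 replicate 3). In siSLC25A1 it was at 107% (0.10, 95% interval 0.02 to 0.18), which missed the threshold (adjusted p 0.0683) but passed it in DESeq2 (adjusted p 0.0488) and with only these 2 groups fitted (adjusted p 0.0257). In siACLY it was at 109% of siControl, described without a test. Against siACO1, its log2 difference was -0.08 in siSLC25A1 (adjusted p 0.116) and -0.05 in siACLY (adjusted p 0.316), and both were called without siACO1 replicate 3 (-0.11 and -0.09).

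By count, 1 of the 4 measured members was called in siSLC25A1 against siControl (PCSK6), where 19.6% of all tested genes were called. In siACO1 3 of 4 were called (FURIN, PCSK6 and MBTPS1), where 37.1% of all genes were. Between siSLC25A1 and siACO1 3 of 4 were called (FURIN, PCSK6 and PCSK7), beside 42.1% of all genes. Of the 3 measured members other than FURIN, none was called between siACLY and siSLC25A1 (33.8% of all genes; 0 of the 3 at an unadjusted p under 0.05 in edgeR, and 0 called by DESeq2) and 1, PCSK6, between siACLY and siACO1 (42.1% of all genes). With so few members these counts do not set the family apart from other genes.

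The genes around FURIN on chromosome 15 were examined as well. FES, a tyrosine kinase gene that starts 236 bases after the end of FURIN on the same strand, had 0.38 to 0.707 CPM as group means and was called in none of the comparisons with siControl (adjusted p 0.224 to 0.713). BLM, a DNA helicase gene 52426 bases before FURIN, had log2 fold changes of 0.06 in siACLY (adjusted p 0.598) and -0.31 in siACO1 (adjusted p 0.00216). Neither neighbour was called in siACLY.

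Genes with the level pattern most like that of FURIN were ILRUN, CNN2, TMCO3, DBNDD1 and UBE3C, with Pearson's r of 0.982 to 0.988 for log2 CPM over the 12 libraries, among 9968 genes compared. These libraries fall into 4 groups, so the r mainly describes the order of the group means. The sizes differed, with log2 fold changes in siACLY of -0.81 for DBNDD1, -0.63 for CNN2 and -0.28 for ILRUN beside -1.33 for FURIN. With FURIN itself, r was -0.20 for PCSK6, -0.38 for PCSK7 and -0.04 for MBTPS1.

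Genes that act with the convertases were taken from 8 lists of 83 genes, of which 66 were tested. In siSLC25A1 26 of them were called, 19 higher and 7 lower, beside 10.3% higher and 9.27% lower among all genes. In siACLY 35 were called, 14 higher and 21 lower (36.7% of all genes were called, 18.4% higher and 18.3% lower). In siACO1 37 were called, 15 higher and 22 lower (17.8% and 19.3% of all genes). These calls were 39.4%, 53.0% and 56.1% of the 66, beside 19.6%, 36.7% and 37.1% of all genes. Their median absolute log2 fold change was 0.15, 0.19 and 0.20, against 0.15, 0.20 and 0.21 over all tested genes. The 66 were thus called more often, but their changes were of about the same size as those of all genes. The lists were written with earlier results of these data known, so the larger share is a description only. The median log2 fold change of the 66 was 0.06, -0.05 and -0.01 in the same order, against medians of 0.00, 0.01 and 0.01 over all tested genes. All 3 comparisons share the control libraries.

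**Figure D4:**
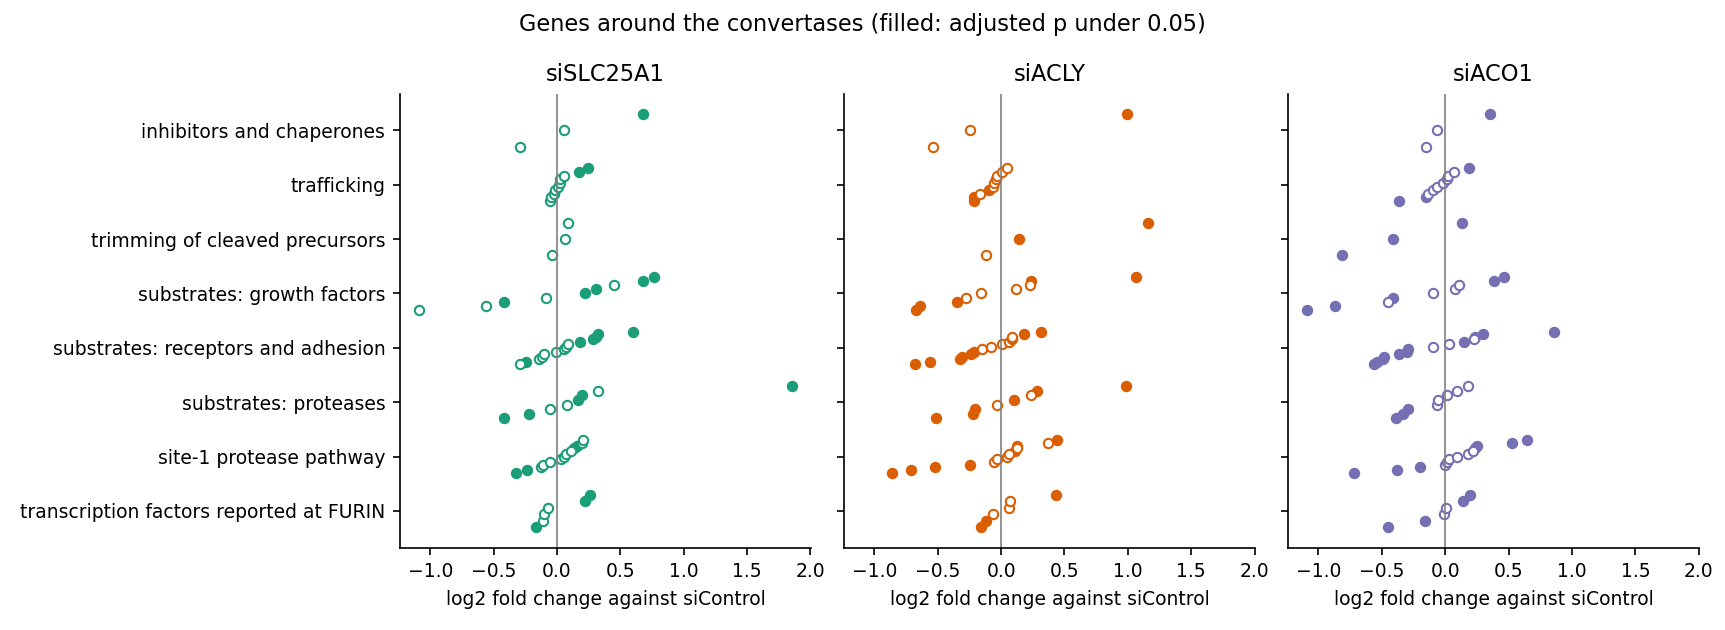
Log2 fold change against siControl (x axis) of each tested gene of the 8 lists (rows) in the 3 knockdowns (panels); filled points have an adjusted p under 0.05. SERPINB8, the filled point of the inhibitors in siSLC25A1 and siACLY, lies at 0.67 and 0.99, and the trafficking genes have median absolute values of 0.04 to 0.08.

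Of 5 inhibitors and chaperones 3 were tested, and 1 was called in each knockdown, always higher. That is 33.3% each time, beside 19.6%, 36.7% and 37.1% of all genes in siSLC25A1, siACLY and siACO1. SERPINB8, a serpin that inhibits FURIN, had 45.7, 47.2 and 46.1 CPM in siControl and rose to 90.2, 92.8 and 94.0 CPM in siACLY (log2 fold change 0.99, SE 0.06, adjusted p 2.62e-12). It also rose in siSLC25A1, to 67.4, 80.4 and 74.3 CPM (0.67, adjusted p 1.21e-08). In siACO1 it was at 41.6 ± 4.46 CPM (-0.15, adjusted p 0.0715). The siACLY libraries thus combined the lowest FURIN with the highest SERPINB8. PCSK1N, an inhibitor of PCSK1, rose in siACO1 by 0.35 (adjusted p 0.021), a call that was lost without siACO1 replicate 3 (0.20) or siControl replicate 3.

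Of 10 trafficking genes tested, 2 were called higher in siSLC25A1, 3 lower in siACLY, and 1 higher and 2 lower in siACO1, or 20%, 30% and 30%, beside 19.6%, 36.7% and 37.1% of all genes. Their median absolute log2 fold change was 0.04, 0.06 and 0.08, against 0.15, 0.20 and 0.21 over all tested genes. PACS1, a sorting adaptor that binds the tail of FURIN, rose in siSLC25A1 by 0.24 (adjusted p 5.21e-05). AP1B1, a subunit of the AP-1 clathrin adaptor, fell in siACLY by 0.22 and in siACO1 by 0.36 on the log2 scale (adjusted p 4.16e-05 and 1e-08), while AP1G1 of the same adaptor rose in siACO1 by 0.19 (adjusted p 0.000462). Smaller calls were VPS29 in siSLC25A1 (0.18), PACS2 in siACLY (-0.22) and siACO1 (-0.15) and CSNK2A1 in siACLY (-0.10). That of VPS29 was lost without siControl replicate 3 or siSLC25A1 replicate 2, that of PACS2 in siACO1 without siControl replicate 1 or 2 or siACO1 replicate 3, and that of CSNK2A1 without any 1 of the 6 libraries compared.

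Of the 3 enzymes that trim precursors after the convertases, none was called in siSLC25A1, 2 were called higher in siACLY, and 1 was called higher and 2 lower in siACO1. Among all genes 19.6%, 36.7% and 37.1% were called in the same order, and 3 genes are too few to compare with these shares. CPE, a carboxypeptidase of peptide hormone processing, rose in siACLY from 3.68, 5.97 and 5.15 to 11.0, 11.2 and 10.8 CPM (1.16, SE 0.13, adjusted p 4.76e-08). It was called lower in siACO1 (-0.41, adjusted p 0.0314), a call that was lost without siControl replicate 2 (-0.24) or 3 or siACO1 replicate 1 or 3. PAM, which amidates peptides, fell in siACO1 from 52.6, 55.7 and 52.4 to 31.2, 29.4 and 30.8 CPM (-0.82, SE 0.05, adjusted p 1.17e-12). CPD, a carboxypeptidase that cycles through the trans-Golgi network like FURIN, was called higher in siACLY (0.14) and siACO1 (0.13). The first call was lost without siControl replicate 1 or 2 or any siACLY library, and the other without replicate 1 or 2 of either group.

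Growth factors made from convertase precursors were tested for 9 of 16 genes, and 5 were called in each knockdown. They were 4 higher and 1 lower in siSLC25A1, 2 higher and 3 lower in siACLY, and 2 higher and 3 lower in siACO1. That is 55.6% of those tested each time, beside 19.6%, 36.7% and 37.1% of all genes. TGFB1, whose precursor is a FURIN substrate, rose in siSLC25A1 by 0.68 and in siACO1 by 0.46 on the log2 scale (adjusted p 2.69e-07 and 3.35e-05). In siACLY it had 11.8 ± 0.321 CPM against 10.9 ± 0.515 in siControl and was not called (adjusted p 0.289). ANGPTL4, a lipase inhibitor cut by convertases, fell in siACO1 from 32.1 ± 1.77 to 15 ± 0.0178 CPM (-1.09, SE 0.07, adjusted p 1.32e-13). It also fell in siACLY (-0.35, adjusted p 4.87e-05) and rose in siSLC25A1 (0.31, adjusted p 0.000456). PDGFB fell in all 3 knockdowns (-0.42, -0.67 and -0.41), PDGFA fell in siACLY (-0.64), GDF15 rose in siACLY (1.06) and TGFB3 rose in siSLC25A1 (0.77) and fell in siACO1 (-0.87).

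Of 16 receptors and adhesion molecules 14 were tested. In siSLC25A1 5 were called higher and 1 lower, in siACLY 2 higher and 6 lower, and in siACO1 4 higher and 7 lower. That is 42.9%, 57.1% and 78.6% of those tested, beside 19.6%, 36.7% and 37.1% of all genes. SORT1, a sorting receptor activated by convertases, rose in all 3, from 43.8, 45.5 and 45.3 CPM to 80.0, 81.5 and 81.8 CPM in siACO1 (0.85, SE 0.05, adjusted p 1.93e-14). NOTCH1, which FURIN cuts on the way to the surface, fell in siACLY from 138, 132 and 147 to 88.8, 82.4 and 87.6 CPM (-0.68, SE 0.07, adjusted p 1.83e-06), and it also fell in siACO1 (-0.49). LRP1 fell in siACLY (-0.56), and the insulin receptor INSR fell in siACLY (-0.32) and siACO1 (-0.29). ITGA6 rose in siSLC25A1 (0.32) and fell in siACO1 (-0.57). Its call in siACLY (0.18, adjusted p 0.0184) was lost without siControl replicate 1 or 3 or siACLY replicate 2 or 3. MET fell in siACO1 (-0.54), and NOTCH2 rose in siSLC25A1 (0.31) and fell in siACO1 (-0.36). The count of NOTCH2 is uncertain, since 26.4% of its 31-base stretches occur in transcripts of other genes.

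Of 12 metalloproteases 8 were tested, with 3 higher and 2 lower in siSLC25A1, 3 of each direction in siACLY and 3 lower in siACO1. That is 62.5%, 75% and 37.5% of those tested, beside 19.6%, 36.7% and 37.1% of all genes. MMP15, a membrane-type metalloprotease, fell in all 3 knockdowns (-0.41, -0.51 and -0.39). ADAMTS4 rose in siSLC25A1 (1.86) and siACLY (0.99), and its fall in siACO1 (-0.33, adjusted p 0.0145) was lost without siACO1 replicate 3 (-0.29) or siControl replicate 2. ADAM15 also fell in all 3 (-0.22, -0.21 and -0.30), and ADAM17, the sheddase of TNF, rose in siACLY (0.28, adjusted p 2.17e-05).

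In the pathway of MBTPS1, 13 of 14 genes were tested, and 2 were called higher and 2 lower in siSLC25A1, 3 higher and 4 lower in siACLY, and 4 higher and 3 lower in siACO1. That is 30.8%, 53.8% and 53.8% of those tested, beside 19.6%, 36.7% and 37.1% of all genes. SREBF1, a substrate that controls lipid synthesis, fell in all 3, from 218, 243 and 239 CPM to 175, 198 and 188 in siSLC25A1, 126, 133 and 127 in siACLY and 145, 143 and 137 in siACO1 (log2 fold changes -0.32, -0.86 and -0.72; adjusted p 8.18e-06, 1.9e-14 and 7.63e-13). SREBF2, the substrate that controls cholesterol synthesis, fell in siSLC25A1 (-0.23) and siACLY (-0.52). CREB3L1, another membrane-bound factor, fell in siACLY (-0.71) and siACO1 (-0.38). INSIG1, which holds the SREBF proteins back from MBTPS1, rose in siACLY (0.44, adjusted p 6.15e-06) and siACO1 (0.52, adjusted p 3.47e-07), and ATF6 rose in siSLC25A1 (0.16). The call of ATF6 in siACLY (0.11, adjusted p 0.0434) was lost without any 1 of the 6 libraries compared. MBTPS1 itself was at 107% to 113% of siControl in the same libraries.

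Of 6 transcription factors listed as reported at the FURIN gene, all tested, 2 were called higher and 1 lower in siSLC25A1, 1 higher and 2 lower in siACLY, and 2 of each direction in siACO1. That is 50%, 50% and 66.7%, beside 19.6%, 36.7% and 37.1% of all genes. CEBPB, a factor of the acute-phase response, had the largest values. It rose in siACLY (0.43, adjusted p 0.00119) and fell in siACO1 (-0.45, adjusted p 0.001). Its rise in siSLC25A1 (0.26, adjusted p 0.0488) was lost without any 1 of 5 of the 6 libraries, siControl replicate 1 being the exception. HIF1A rose in siSLC25A1 (0.22) and siACO1 (0.19) and RUNX1 fell in siSLC25A1 (-0.16), the latter lost without siControl replicate 3. RUNX1 was called higher in siACO1 (0.14, adjusted p 0.0119), which was lost without siControl replicate 2 or siACO1 replicate 1. SMAD3 in siACLY (-0.16) and SMAD4 in siACLY (-0.12) and siACO1 (-0.16) were called lower, and all 3 of these calls were lost with library totals alone. Those in siACLY were also lost without siControl replicate 1 or 3 or siACLY replicate 3, and that of SMAD4 without siControl replicate 2 or siACLY replicate 1 as well. The part of any of these factors in the level of FURIN was not tested. In bulk RNA, fewer cells with a transcript and less of it per cell cannot be told apart.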

How the data were processed

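Poly(A) RNA of MiaPaCa-2 cells was sequenced in 12 libraries, 3 for each of 4 groups taken from the sample labels. The authors deposited 1 table of raw read counts per Ensembl gene. Per the submitters' processing notes, CASAVA, FastQC, Trim Galore, STAR (version 2.7.0e) and DESeq2 were used, and the builds GRCh38 and GRCm39 are named with no role. The annotation release and strand setting are not given in the sources used here.

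Counts were fitted with edgeR 4.0.16 (R 4.3.3): filterByExpr, TMM scaling and the robust quasi-likelihood test on all 4 groups. Adjusted p-values are Benjamini-Hochberg over 16197 genes, called at 0.05. The common biological coefficient of variation was 4.89%, with 8 residual degrees of freedom. DESeq2 1.42.0, other scalings and filters, a replicate block, the 2 groups alone and leaving out each library were tried. Same-numbered replicates did not pair (correlations of deviations -0.0443 to 0.0903). Intervals are at 95%. The code was tested on simulated data.

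The members and lists were chosen with earlier results of these data known. Named were the members, the siRNA targets, up to 3 called genes per list and knockdown with the largest changes at 5 CPM or more, the 5 genes most like FURIN among those at 5 CPM or more, and the gene on each side of FURIN. For a gene named in one knockdown, its calls in the others are given too. Likeness used log2 CPM with a pseudocount of 0.5.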

Additional observations from a re-analysis of the deposited data

How the results depend on the processing

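Against siControl, 2 members passed the threshold in siSLC25A1 with DESeq2 and with only the 2 groups fitted (PCSK6 and MBTPS1). Between siACLY and siACO1, 2 passed with DESeq2 and with no filter on low counts, and 1 to 2 when each library was left out. The log2 fold changes that reversed in sign had passed no threshold. PCSK7 between siACLY and siSLC25A1 was at 0.003 with library totals and, leaving out each library, at -0.097 to 0.021 (above 0 without siSLC25A1 replicate 1). Leaving out each library, TAGLN in siSLC25A1 ran from -0.182 to 0.054, above 0 without siControl replicate 1 (0.002) or siSLC25A1 replicate 1 or 3 (0.005). BLM in siACLY ran from -0.015 (without siACLY replicate 2) to 0.103, and FES in siACO1 from -0.391 to 0.026, above 0 without siControl replicate 1 (0.010) or siACO1 replicate 3. SLC25A1 in siACLY was at 0.015 with library totals. The cause was not tested. PCSK7 between siSLC25A1 and siACO1 also missed the threshold with library totals (adjusted p 0.131) and with the 2 groups alone (adjusted p 0.0622). Replicate numbers gave no pairing, and with the replicate block FURIN in siACO1 was at 0.368 (adjusted p 1.48e-07), 3 members were called there as before, and no member's call changed. The limits are 1 cell line, 3 libraries a group, counts without known strand, and counting error at low counts.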

Other observations

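PCSK4, the convertase of germ cells, and PCSK2, the partner of PCSK1 in endocrine granules, are not among the 6 genes above. They were added after their values were seen, so these are descriptions with no test. PCSK4 had 9.04, 6.80 and 7.61 CPM in siControl, 6.38, 5.67 and 6.76 in siSLC25A1, 5.04, 5.12 and 6.17 in siACLY, and 9.14, 9.04 and 9.69 in siACO1. The siSLC25A1 and siACLY libraries overlapped each other and lay below all those of siControl, with levels at 80.2% and 69.1% of it. In siACO1 PCSK4 was at 119% of siControl, and the libraries of these 2 groups overlapped. Its group mean was lowest in siACLY and highest in siACO1, as for FURIN. The level of PCSK4 in siControl was 2.06 CPM per kilobase of exon, against 15.6 for FURIN and 1.85 for PCSK6. Per kilobase of the longest coding transcript it was 2.94, against 17.0 and 5.55. PCSK4 is not part of the summed level or of the FURIN shares given above. PCSK2 had 0 to 2 counts in every library.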
